A study of Mus musculus with 2 samples.

Results

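The miR-378 family comprised 5 mature microRNAs, each chosen by its exact name, mmu-miR-378a-3p, mmu-miR-378a-5p, mmu-miR-378b, mmu-miR-378c and mmu-miR-378d, given below without the species prefix. All 5 names were among the 484 microRNAs listed in experiment 1 and among the 1915 listed in experiment 2. Small RNAs of liver were sequenced to profile alcohol-induced liver injury and steatosis in wild-type C57BL/6 female mice aged 8 to 10 weeks. Both groups first took the control Lieber-DeCarli diet for 5 days. Ethanol-fed mice then drank the 5% (v/v) ethanol version, for 10 days by the protocol although the design statement gives 16 days, while pair-fed mice stayed on a control diet matched in calories. On day 16 the ethanol-fed mice were gavaged once with 6 g/kg ethanol and the pair-fed mice with dextrin-maltose of equal calories, and livers were collected 9 h later. Each experiment had 1 pair-fed and 1 ethanol-fed library, so every difference given here is between single libraries, with no replicate and no test between conditions. The labels name 1 sample per diet, and the animals or pools behind the 4 libraries are not given in the sources used here.

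A microRNA represses messenger RNAs by pairing with them mainly through its seed, a short stretch near its 5′ end. The miR-378a hairpin lies in an intron of Ppargc1b, which encodes PGC-1β, a transcriptional coactivator of mitochondrial and lipid metabolism genes. Its 3p arm is known to target Crat, the mitochondrial carnitine acetyltransferase, and its 5p arm Med13, a subunit of the Mediator complex, and miR-378a is known for its abundance in muscle and brown fat and for roles in liver energy metabolism. miR-378b, miR-378c and miR-378d are named as copies from other loci. In the GENCODE annotation Mir378a overlapped no exon of Ppargc1b and lay on the same strand. An annotated microRNA gene on the opposite strand, Gm25301, also overlapped Mir378a. Mir378b lay within an intron of Msi2 and Mir378c within an intron of Samd4, both on the strand opposite to the host, and no annotated gene overlapped Mir378d.

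Of the 5 names, 3 matched the RefSeq table of mature microRNAs on GRCm38.p6, and miR-378a-3p and miR-378a-5p did not. The matched sequences are shown because they carry different seeds and share nearly all other bases, which bears on how their reads can be told apart. Capitals mark the seed, bases 2 to 8.
miR-378b: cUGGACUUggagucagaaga
miR-378c: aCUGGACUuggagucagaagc
miR-378d: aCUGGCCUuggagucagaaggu
The 20 bases of miR-378b lay at chr11:88352839-88352858 on the plus strand, the 21 bases of miR-378c at chr14:46954905-46954925 on the minus strand, and the 22 bases of miR-378d at chr10:126710355-126710376 on the minus strand. RefSeq placed miR-378b on the 3′ side of its hairpin and miR-378c and miR-378d on the 5′ side of theirs. No other entry among the 1679 mature names of the table shared any of the 3 seeds. Because miR-378a-3p and miR-378a-5p were not in it, this search could not show whether either shares a seed with these 3.

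Aligned, miR-378b began 1 base later than miR-378c, so the seed windows were shifted by 1 base along a common run of 19 bases. Over their 20 overlapping bases, 19 were identical and the exception was A20C, with positions counted from the 5′ end of the first-named microRNA here and below. miR-378c and miR-378d were identical at 19 of 21 bases and differed by A6C, which lies in the seed, and C21G. miR-378b and miR-378d were identical at 18 of 20 overlapping bases and differed by A5C and A20G. Each of the 3 full sequences occurred in the transcripts of 1 gene only, its own, among 141767 GENCODE transcripts searched. How a read that matched more than 1 of these names was counted is not given in the sources used here. The split of reads among miR-378b, miR-378c, miR-378d and miR-378a-3p is therefore uncertain, and the counting may differ between the experiments.

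Experiment 1 lists counts of reads, with 4170601 reads on microRNAs for pair-fed and 4311802 for ethanol-fed liver. Experiment 2 lists reads per 1000000 reads on microRNAs (RPM), and the size of its smallest steps gave totals of about 10812813 and 10820838 reads. Counts were scaled to RPM, but the experiments were normalized separately, so levels are compared within an experiment only. Intervals are 95% intervals for counting error alone. PCR copies of a molecule were not told apart, and the spread between animals is not in the intervals. In experiment 1 a level of up to 0.719 RPM (pair-fed) or 0.696 RPM (ethanol-fed) could have given 0 reads, by a limit of 3 reads. The hepatocyte microRNAs miR-122-5p, miR-122-3p, miR-192-5p, miR-194-5p and miR-802-5p were detected in every library and together made up 29.2% to 39.2% of the reads. In experiment 1 nearly all of that sum was miR-192-5p, which other epithelia also express, while miR-122-5p, the defining hepatocyte microRNA, had 2971 RPM (pair-fed) and 2210 RPM (ethanol-fed), against 182938 and 156660 RPM in experiment 2. In whole liver RNA, fewer cells of a type and less of a microRNA per cell cannot be told apart.

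miR-378a-3p was the most abundant member in all 4 libraries, and its difference between diets had opposite directions in the 2 experiments. In experiment 1 its level was 6618 RPM (6540 to 6696, 27600 reads) with pair feeding and 4296 RPM (4235 to 4358, 18524 reads) with ethanol. The ethanol-fed level was 1.54-fold lower (1.51 to 1.57), a log2 ratio of -0.62 with 1 read added to each library, as for all log2 ratios here. The intervals did not overlap, and the rank of miR-378a-3p among the microRNAs detected was 18 of 395 and 20 of 436, respectively. In experiment 2 the pair-fed level was 9229 RPM (9173 to 9287) and that with ethanol 10620 RPM (10559 to 10682). Here the ethanol-fed library was the higher one, at 1.15 times the pair-fed level (1.14 to 1.16, log2 ratio 0.20), with rank 17 in both libraries. When reads were scaled to miR-122-5p, the log2 ratio of miR-378a-3p was -0.20 in experiment 1 and 0.43 in experiment 2.

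The size of the differences on the RPM scale was set against other abundant microRNAs, since counting error is small at this depth. In experiment 1, 82 had at least 1000 reads in both libraries together, and their log2 ratios had a median of 0.04 and an SD of 0.50. The ratio of miR-378a-3p was matched or exceeded on the low side by 7 of the 82, itself included, and in absolute size by 11. In experiment 2 the same class held 151 microRNAs with an SD of 0.48. There, 46 of the 151 had a log2 ratio as high as that of miR-378a-3p or higher, and 82 had one at least as large in absolute size. The difference of experiment 2 was thus smaller than that of the median abundant microRNA of the same library pair.

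**Figure D1:**
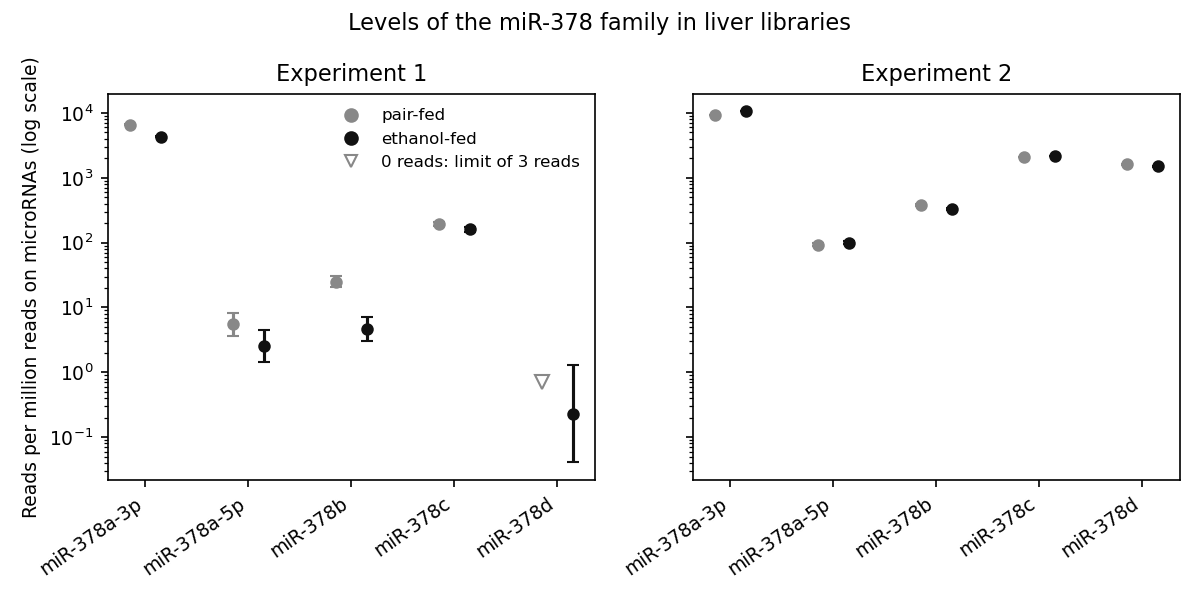
Level of each miR-378 member in reads per 1000000 reads on microRNAs (RPM, log scale) in the pair-fed (grey) and ethanol-fed (black) library of each experiment, with 95% counting intervals where they exceed the symbol; the open triangle marks the limit that 0 reads allow. miR-378a-3p is the highest member in every library, at 6618 and 4296 RPM in experiment 1 and 9229 and 10620 RPM in experiment 2.

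The opposite arm of the same hairpin, miR-378a-5p, was the rarest member in experiment 2 and had few reads in experiment 1. In experiment 1 it had 23 reads (5.51 RPM, 3.67 to 8.28) with pair feeding and 11 reads (2.55 RPM, 1.42 to 4.57) with ethanol. The pair-fed level was 2.16-fold higher, with an interval of 1.01 to 4.91, and the log2 ratio was -1.05. The single-library intervals overlapped. In experiment 2 its level was 93.5 RPM (87.9 to 99.4) with pair feeding and 99.8 RPM (94.0 to 106) with ethanol, a ratio of 1.07 whose interval, 0.979 to 1.16, included equal levels.

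The 3p arm exceeded the 5p arm in every library. In experiment 1 there were 1200 reads of the 3p arm per read of the 5p arm with pair feeding (800 to 1893) and 1684 with ethanol (941 to 3374). Those intervals overlapped. In experiment 2 the ratios were 98.7 (92.8 to 105) and 106 (100 to 113), again with overlapping intervals, so no difference between diets in the balance of the arms was detectable at this depth.

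Among the copies, miR-378b showed the largest ratio of the family, in experiment 1. It had 104 reads there with pair feeding (24.9 RPM, 20.6 to 30.2) and 20 reads with ethanol (4.64 RPM, 3.003 to 7.16). The level was 5.38-fold lower with ethanol (3.31 to 9.16), and the log2 ratio was -2.37. Among the 158 microRNAs with at least 100 reads in both libraries together this was the lowest log2 ratio, followed by miR-1843b-3p at -1.74. Low counts scatter more: of the 172 microRNAs with 10 to 200 reads, 34 were at least 2-fold lower and 28 at least 2-fold higher, and 8, miR-378b included, had a log2 ratio as low.

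In experiment 2 the estimated reads of miR-378b numbered 4063 and 3542, many times those of experiment 1. Its level was 376 RPM (364 to 387) with pair feeding and 327 RPM (317 to 338) with ethanol, a 1.15-fold lower level with ethanol (1.10 to 1.20, log2 ratio -0.20) that became 0.025 on the log2 scale when reads were scaled to miR-122-5p. That scaling, to the main hepatocyte microRNA, shifted the median log2 ratio of all microRNAs by 0.43 in experiment 1 and 0.22 in experiment 2. The strong difference of experiment 1 was therefore not matched in size in the experiment that listed more reads under miR-378b. Those reads may include reads of the near-identical names, so they may not measure miR-378b itself more precisely. The difference between the experiments was not tested, since each had 1 library per diet.

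miR-378c, the second most abundant member in every library, differed little between diets. Its level in experiment 1 was 193 RPM (180 to 206, 803 reads) with pair feeding and 160 RPM (148 to 172, 688 reads) with ethanol. That was 1.21-fold lower with ethanol (1.09 to 1.34, log2 ratio -0.27), but 0.16 higher on the log2 scale when reads were scaled to miR-122-5p. In experiment 2 its level was 2094 RPM (2066 to 2121) and 2174 RPM (2147 to 2202), a ratio of 1.04 (1.02 to 1.06, log2 ratio 0.05). Both ratios lay well within the spread of the abundant microRNAs of their experiment.

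miR-378d was nearly absent from experiment 1 and ranked among the abundant microRNAs of experiment 2. In experiment 1 it had 0 reads with pair feeding and 1 read with ethanol (0.232 RPM), so it entered no comparison. In experiment 2 its level was 1622 RPM (1598 to 1646) with pair feeding, at rank 42, and 1503 RPM (1480 to 1526) with ethanol, at rank 44. This was 1.08-fold lower with ethanol (1.06 to 1.10, log2 ratio -0.11), a direction that turned to 0.11 when reads were scaled to miR-122-5p. miR-378d was the third most abundant member in experiment 2 and the least abundant in experiment 1, in the libraries of both diets. Its listed level in experiment 2 may include reads of the near-identical names.

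Within each experiment the order of the members was the same in both diets. In experiment 1 it ran miR-378a-3p, miR-378c, miR-378b, miR-378a-5p, miR-378d in both libraries, and the only neighbours whose intervals overlapped were miR-378b and miR-378a-5p in the ethanol-fed library. In experiment 2 it ran miR-378a-3p, miR-378c, miR-378d, miR-378b, miR-378a-5p, and no neighbours overlapped in either library. The step from miR-378a-3p to miR-378c was 34.4-fold with pair feeding and 26.9-fold with ethanol in experiment 1, but 4.41-fold and 4.88-fold, in the same order, in experiment 2.

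Against all microRNAs the members were counted with a call of at least 2-fold, among those with at least 10 reads in both libraries together. In experiment 1, 4 of the 5 members passed this minimum, of which 2, miR-378b and miR-378a-5p, were at least 2-fold lower in the ethanol-fed library and 0 were higher. Of the 302 microRNAs that passed, 12.9% were at least 2-fold lower and 12.6% at least 2-fold higher. The log2 ratios of the 4 members were below 0, except that of miR-378c when scaled to miR-122-5p, and their median was -0.84 against -0.01 for all 302. The call of miR-378a-5p, which rested on 34 reads, was lost under that scaling (log2 ratio -0.62). It was kept with the 4 listed red cell microRNAs left out of the total (-1.015) and lost when miR-486b-5p was left out as well (-0.98).

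In experiment 2 all 5 members passed the minimum and 0 were called in either direction. Of the 469 microRNAs that passed, 15.1% were at least 2-fold lower and 10.7% at least 2-fold higher. The members' log2 ratios ran from -0.20 to 0.20, with a median of 0.05 against 0.00 for all 469. No member of the family therefore passed the 2-fold call in both experiments.

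**Figure D2:**
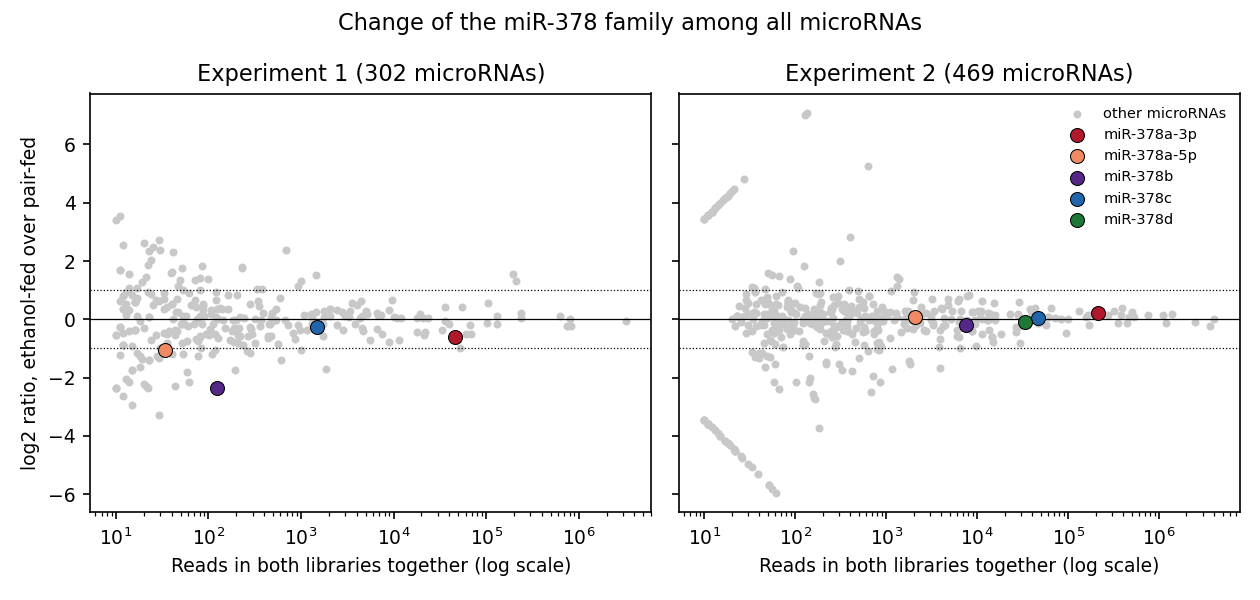
Log2 ratio of the ethanol-fed to the pair-fed library against the reads of both libraries together (log scale) for all microRNAs with at least 10 reads (grey) and for the miR-378 members (coloured); dotted lines mark 2-fold. In experiment 1 miR-378b lies at -2.37 and miR-378a-3p at -0.62, while in experiment 2 all 5 members lie between -0.20 and 0.20.

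The makeup of the family differed more between the experiments than between the diets. miR-378a-3p supplied 96.7% and 96.3% of the family's reads in experiment 1, pair-fed value first, and 68.8% and 72.1% in experiment 2. miR-378c supplied 2.81% and 3.58% in experiment 1 and 15.6% and 14.8% in experiment 2. miR-378d supplied at most 0.0052% in experiment 1 and 12.1% and 10.2% in experiment 2. The difference between the experiments was seen in both diets, and the reads cannot be reassigned among the near-identical names from these data.

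**Figure D3:**
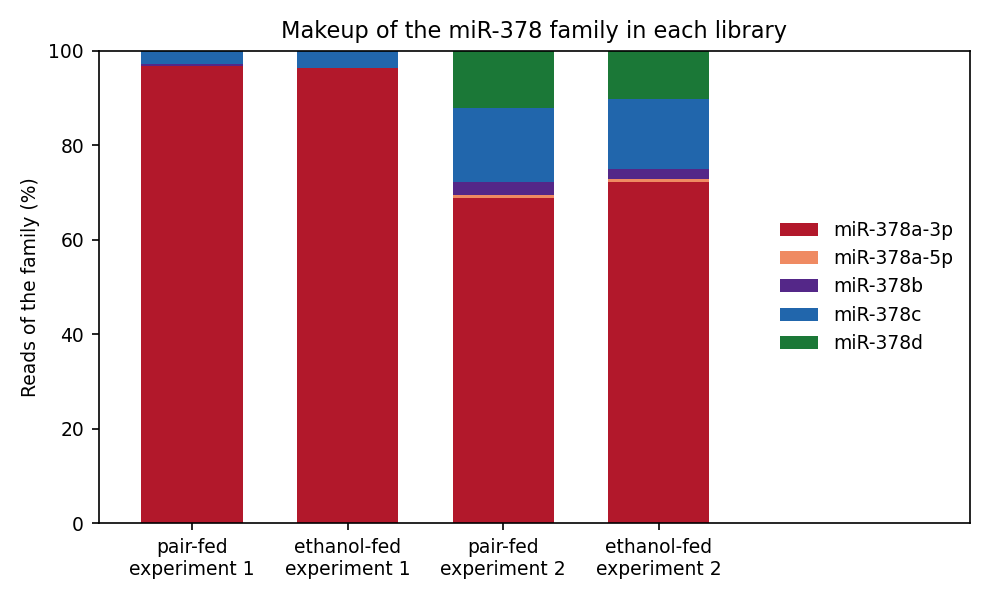
Share of each miR-378 member in the reads of the family (%), stacked, in each of the 4 libraries. miR-378a-3p fills 96.7% and 96.3% of the bars of experiment 1 and 68.8% and 72.1% of those of experiment 2, where miR-378c and miR-378d take most of the rest.

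Ratios within a library do not depend on the scaling, so the other members were also set against miR-378a-3p. miR-378b had 0.377 reads per 100 reads of miR-378a-3p with pair feeding and 0.108 with ethanol in experiment 1, and 4.07 and 3.08 in experiment 2. It was thus lower relative to miR-378a-3p with ethanol in both experiments, by log2 differences of -1.80 and -0.40, with counting intervals that did not overlap in either. miR-378c had 2.91 and 3.71 reads per 100 in experiment 1 but 22.7 and 20.5 in experiment 2, so its direction differed between the experiments. miR-378d had 17.6 and 14.1 reads per 100 in experiment 2. miR-378a-5p had 0.0833 and 0.0594 in experiment 1 and 1.01 and 0.940 in experiment 2, with overlapping intervals in both. In experiment 2 miR-378c and miR-378d were thus also lower relative to miR-378a-3p with ethanol, by log2 differences of -0.15 and -0.31, without overlap of the intervals. The log2 difference of miR-378a-5p there was -0.11, within counting error. The ratios of miR-378b, miR-378c and miR-378d depend on how reads were split among the near-identical names, which is not given.

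The sum of the family followed miR-378a-3p, which supplied most of its reads, so it is not a separate result. On the RPM scale, 3 members had log2 ratios above 0 in experiment 2 and 2, miR-378b and miR-378d, below 0. The 5 names together took 0.684% of the reads on microRNAs with pair feeding and 0.446% with ethanol in experiment 1, and 1.34% and 1.47% in experiment 2. A read counted under more than 1 name would enter this sum more than once. When miR-378a-3p, miR-378b, miR-378c and miR-378d were summed to 1 value, the log2 ratio of experiment 2 was 0.13.

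The 3 microRNAs whose pair of log2 ratios lay closest to that of miR-378a-3p were miR-181b-5p, miR-151-3p and miR-30e-3p. They were taken from the 75 others that had at least 1000 reads in both experiments, by the distance between the pairs of ratios. miR-181b-5p had log2 ratios of -0.56 in experiment 1 and 0.22 in experiment 2, at a distance of 0.064. miR-151-3p had -0.55 and 0.24, at 0.082, and miR-30e-3p had -0.52 and 0.26, at 0.12. The likeness rests on 2 ratios, each from 1 pair of libraries. On the RPM scale, 18 of the 75 were lower in experiment 1 and higher in experiment 2, 16 were the reverse, 16 were lower in both and 25 were higher in both. Only miR-100-5p, at -0.72 and 0.32, was at least as far as miR-378a-3p in both directions.

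**Figure D4:**
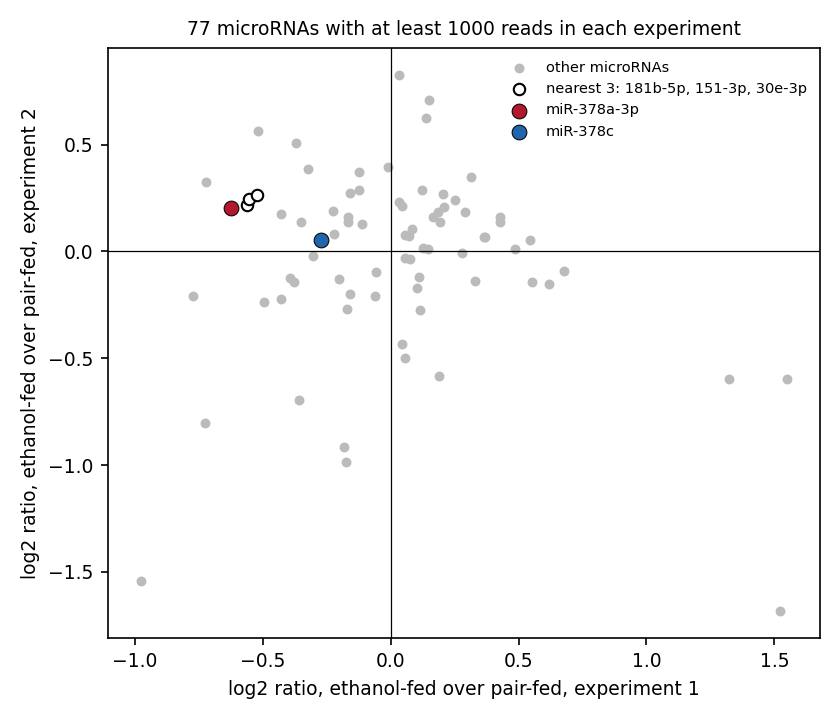
Log2 ratio of the ethanol-fed to the pair-fed library in experiment 2 against that in experiment 1 for the 77 microRNAs with 1000 reads or more in both. miR-378a-3p lies at -0.62 and 0.20, beside miR-181b-5p, miR-151-3p and miR-30e-3p (open circles).

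Other microRNAs that lie in introns of metabolic genes were taken from a list of 7 names, comprising the arms of miR-33 in Srebf2, which encodes the sterol regulator SREBP-2, and of miR-103 and miR-107 in the Pank genes of coenzyme A synthesis. In experiment 1, 3 of the 7 passed the minimum of 10 reads, of which 1 was at least 2-fold lower, against 12.9% of all, and 0 were higher, against 12.6%. That 1 was miR-33-5p, with 19 reads with pair feeding and 3 with ethanol (log2 ratio -2.37). In experiment 2, 4 of the 7 passed and 0 were called, against 15.1% of all lower and 10.7% higher. Among them, miR-33-5p had 6.20 and 6.56 RPM and miR-33-3p 2.22 and 2.86 RPM.

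The 2 abundant names of that list differed little between diets. miR-103-3p had 480 RPM (pair-fed) and 430 RPM (ethanol-fed) in experiment 1 and 2850 and 2483 RPM in experiment 2, with log2 ratios of -0.16 and -0.20. miR-107-3p had 377 and 397 RPM in experiment 1 and 606 and 592 RPM in experiment 2, with log2 ratios of 0.08 and -0.03. The list had a median log2 ratio of -0.16 in experiment 1 and 0.02 in experiment 2, and those of its members that passed the minimum lay within the spread of abundant microRNAs apart from miR-33-5p in experiment 1.

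Markers of other tissues that express miR-378a, and of blood and pancreas, also differed between the libraries. Of 7 striated muscle microRNAs, 2 were listed in experiment 1, where their sum was 0.719 RPM with pair feeding and 4.64 RPM with ethanol, and miR-1a-3p was not among the names listed. In experiment 2, 3 of the 7 were detected, all higher in the ethanol-fed library, with a sum of 74.3 and 117 RPM, and miR-206-3p, miR-133b-3p, miR-208a-3p and miR-208b-3p were listed at 0. The 4 brown fat microRNAs summed to 28.1 and 29.2 RPM in experiment 1, 3 of 4 higher with ethanol, and to 1113 and 880 RPM in experiment 2, 1 of 4 higher, or 2 when scaled to miR-122-5p, which turned miR-455-3p.

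The 4 red cell microRNAs, miR-486a-5p, miR-451a and both arms of miR-144, were all higher with ethanol in experiment 1, from 1.16% to 3.39% of the reads, and all lower in experiment 2, from 0.183% to 0.115%. With these 4 left out of the total, the log2 ratio of miR-378a-3p was -0.59 in experiment 1 and 0.20 in experiment 2. With miR-486b-5p, at 14092 and 35204 RPM in experiment 1, left out as well, it was -0.56 and 0.20. The 4 white cell microRNAs were all lower with ethanol in both experiments, except miR-142a-5p of experiment 1 when scaled to miR-122-5p, with sums of 404 and 335 RPM and of 872 and 463 RPM. Of 4 pancreas microRNAs, all were at least 2-fold higher with ethanol in experiment 2, against 10.7% of all, from 5.92 to 113 RPM in sum, with miR-216a-5p and miR-216b-5p at 0 in the pair-fed library. In experiment 1, 2 of those 4 were listed, with a sum of 85.1 and 48.5 RPM. The part of these cell types in the values of the miR-378 members was not tested, since leaving red cell microRNAs out of the total changes only the scaling.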

How the data were processed

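Small RNAs of mouse liver were sequenced from gel-fractionated total RNA after RT-PCR amplification. The authors deposited 2 tables of mature microRNAs. The deposited table of experiment 1 holds counts of reads, not normalized, and the deposited table of experiment 2 holds RPM per library. Both also hold the authors' own fold changes and p-values, which were not used. The submitters' processing notes name mm8, and the aligner, annotation and filters are not given in the sources used here. Libraries were assigned to diets by column name, 0 columns stayed unmapped, and repeated columns in experiment 2 held identical values, of which 1 copy was used.

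Totals of experiment 2 were estimated from the smallest step of its RPM values. With them, 98.0% of 296 values under 60 RPM in the pair-fed and 97.3% of 291 in the ethanol-fed library were whole reads within 0.1 read, against a median of 19.6% over other totals. The lowest value above 0 was 0.92 RPM, or 10 reads, so a listed 0 may stand for fewer. Log2 ratios used RPM with 1 read added, a minimum of 10 reads in both libraries together and a call of 2-fold. Intervals were 95% Wilson intervals for levels and exact binomial ones for ratios. The labels name 1 sample per diet and each experiment held 1 library per diet, so no p-value was computed, and the pairs of the 2 experiments were not tested together. Alternatives were other scalings, minimums, pseudocounts, treatments of 0 and a summed family. The members, the lists and the rule for named microRNAs, which was every member, the 3 nearest patterns and the list members, were chosen with earlier results of these data known. Sequences came from RefSeq (GRCm38.p6), and host genes and transcripts from GENCODE. Calculations were tested on simulated data. Scripts ran in Python 3.11.15 with scipy 1.17.1 and pandas 2.3.3 on numpy 2.4.6, and figures were drawn with matplotlib 3.10.9.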

Additional observations from a re-analysis of the deposited data

Results flagged for a closer look

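3 members had log2 ratios of ethanol-fed to pair-fed in opposite directions in the 2 experiments, each from 1 pair of libraries, and these differences were not tested. The ratio of miR-378a-3p in experiment 2 (0.20) exceeded that in experiment 1 (-0.62) by 0.83 on the log2 scale. For miR-378a-5p (0.09 and -1.05) the gap was 1.14, with 34 reads behind the value of experiment 1. Its counting interval in experiment 2 included equal levels, so its direction there is uncertain. For miR-378c (0.05 and -0.27) it was 0.33, and with reads scaled to miR-122-5p both of its ratios were above 0.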

How the results depend on the processing

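Of 65 log2 ratios of members under other settings, 51 stayed within the counting interval of the value given and 14 did not. A change of direction was counted only for the called members, miR-378b and miR-378a-5p of experiment 1, with 0 found. Among members not called, miR-378c in experiment 1 and miR-378b and miR-378d in experiment 2 changed sign when scaled to miR-122-5p. For miR-378a-3p in experiment 1 the ratio was -0.58 unscaled, -0.59 with median-of-ratios size factors and -0.66 without the most abundant microRNA in the total. In experiment 2 it was 0.19 with size factors and 0.13 with the family summed. Scalings chosen after seeing the data were to miR-122-5p and to totals without red cell microRNAs. The former shifted the median of all microRNAs by 0.43 in experiment 1 and 0.22 in experiment 2. It gave miR-378a-3p -0.20 and miR-378c 0.16 in experiment 1, and in experiment 2 miR-378a-3p 0.43, miR-378a-5p 0.32, miR-378b 0.025, miR-378c 0.28 and miR-378d 0.11. The latter gave miR-378a-3p -0.59 in experiment 1 without the 4 listed red cell microRNAs and -0.56 without miR-486b-5p as well. Counts of microRNAs past 2-fold followed the minimum of reads. With no minimum 99 were higher and 102 lower in experiment 1 (38 and 39 as given), and with a minimum of 100 reads 10 and 9. In experiment 2 a minimum of 100 reads left 12 higher and 24 lower (50 and 71 as given), and 22 were higher when a 0 took the lowest value listed. Without miR-378a-5p, miR-378a-3p made up 69.3% and 72.6% of the family in experiment 2. No paired analysis was made. The labels name 1 sample per diet and carry no replicate numbers, so the 2 pairs of libraries were not taken as replicates and none was left out. A test of the log2 ratios over the 2 pairs was not run. In experiment 1, the 34 reads of miR-378a-5p, 124 of miR-378b and 1 of miR-378d limit their precision.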
